A study of Mus musculus with 12 samples.

Results

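Interferon-inducible GTPases were examined in tumour-associated macrophages (TAMs), as 10 genes among the 24781 rows of a table of molecule counts. The 10 genes were Gvin1 and Gm4070, the guanylate-binding proteins Gbp2, Gbp3, Gbp5 and Gbp7, and the immunity-related GTPases Irgm1, Irgm2, Igtp and Iigp1. They were chosen by name with their difference between picrotoxin and DMSO already known, so their values in that comparison are given as a description, with intervals and without a test. Gvin1 and Gm4070 are near-identical copies and counted as 1 measurement, which left 9 measurements. All 10 genes were present in the table and all passed the filter for testing, a mean above 1 normalised molecule over the libraries, which 9580 genes passed.

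TAMs came from wild-type (WT) mice on a C57BL/6J or C57BL/6N background bearing intradermal tumours of MC38, a colon adenocarcinoma line of mouse origin. Animals of the study were 2 to 5 months old, and the age behind each library was not given in the sources used here. One group received picrotoxin, an antagonist of the GABA type A receptor, at 40 μg per mouse from the day before tumour inoculation and then on alternate days. The other received the solvent DMSO. Each of the 6 DMSO and 6 picrotoxin libraries was made from 100 CD45+CD11b+F4/80high cells, sorted out of tumours on day 7. The methods of the study describe a library per mouse, whereas its figure text gives 4 mice for the 6 libraries of a group, and the labels do not tie libraries to animals. The intervals and p-values below measure the spread between libraries, and they are too narrow or too small if libraries shared a mouse.

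Guanylate-binding proteins (GBPs) and immunity-related GTPases (IRGs) are strongly induced by interferon-γ in macrophages. They gather on the vacuoles of intracellular parasites and bacteria, where they help to break the membrane and expose the pathogen to autophagy proteins and inflammasomes. Irgm1, Irgm2 and Igtp belong to the regulatory IRGs, which hold the effector IRGs, such as Iigp1, inactive on the membranes of the cell itself. Gvin1 encodes a very large interferon-inducible GTPase whose role is poorly known. Transcription of such genes starts from promoters that carry short regulatory sequences, the gamma-activated site (GAS) and the interferon-stimulated response element (ISRE).

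The counts of Gvin1 and Gm4070 were equal in 10 of 12 libraries and differed by 1 molecule in the other two. Both genes lie on the minus strand of chromosome 7 (GENCODE release 21, GRCm38), Gvin1 at chr7:106156556-106215326 and Gm4070 at chr7:105895139-105953967. The Gvin1 transcript has 9005 bases in 4 exons, and 1 of these, the last, with 8709 bases, holds the whole coding sequence of 2427 residues and the 1421 bases after the stop codon. Aligned over all 9005 bases, the transcripts differed at 3 positions, G2105T, G5204A and C7375T, counted from the 5′ end with the base of Gvin1 first. All 3 lie in the coding part, the nearest of them 1630 bases from the 3′ end. These windows of 29 bases are shown because they are the only stretches in which a read can tell the copies apart, with the differing base in capitals.
Gvin1 at chr7:106163442-106163470: atctcagttgtgcaGccttctagaacctc
Gm4070 at chr7:105902025-105902053: atctcagttgtgcaTccttctagaacctc
Gvin1 at chr7:106160343-106160371: tatggaaggacggaGgagactggagcaga
Gm4070 at chr7:105898926-105898954: tatggaaggacggaAgagactggagcaga
Gvin1 at chr7:106158172-106158200: tccgggaattcccaCtcaagaaatatcga
Gm4070 at chr7:105896755-105896783: tccgggaattcccaTtcaagaaatatcga
The counting of reads with several matching places was not given in the sources used here. The value written below for Gvin1 therefore stands for both copies together, and which of them was transcribed cannot be told apart.

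RefSeq promoter windows (GRCm38.p6) were found for 7 of the 10 genes, and Gvin1 and Gm4070 were among those without one. The core of the ISRE was searched as GAAANNGAAA on both strands within the 250 bases before each start site, and it was present in 7 of 7 members. Over all 27025 genes with a window, 3.46% carried a match. The GAS was searched as TTCNNNGAA, which reads the same on both strands, and was present in Gbp5, Gbp7, Igtp and Irgm2, 4 of 7 members, against 8.13% of all genes. No ISRE match overlapped a GAS match in these windows. Of 9 other interferon-inducible GTPases with a window, 5 carried the ISRE core and 3 the GAS. Tgtp1 and Tgtp2, whose transcripts are near-identical, carried both. The genes without a match also included close copies of each other, so the 9 are not all separate cases. The stretches of Igtp and Irgm2 printed below are near-identical, so these members are not separate cases in either count. A match of letters describes the sequence and does not show binding in these cells. The ISRE matches are printed below within 30 bases each, with matching bases in capitals, because this match was shared by all 7 members with a window.
Gbp5 at chr3:142496759-142496788, plus strand: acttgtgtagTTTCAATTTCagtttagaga
Gbp7 at chr3:142530273-142530302, plus strand: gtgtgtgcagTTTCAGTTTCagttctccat
Gbp3 at chr3:142559992-142560021, plus strand: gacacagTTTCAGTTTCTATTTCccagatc
Gbp2 at chr3:142620594-142620623, plus strand: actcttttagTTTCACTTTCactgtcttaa
Irgm1 at chr11:48871428-48871457, minus strand: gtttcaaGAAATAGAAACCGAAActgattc
Igtp at chr11:58199512-58199541, plus strand: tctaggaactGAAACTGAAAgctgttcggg
Irgm2 at chr11:58214903-58214932, plus strand: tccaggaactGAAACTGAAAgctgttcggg
The match ended 50 bases before the start site in Gbp2, 44 in Gbp7, 25 in Igtp and 55 in Irgm2. It lay farther out in Gbp5, at 156 bases. Gbp3 and Irgm1 each held 2 overlapping matches, the nearer of which ended 30 and 15 bases before the start. A second RefSeq start site of Gbp3 had neither motif.

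**Figure D1:**
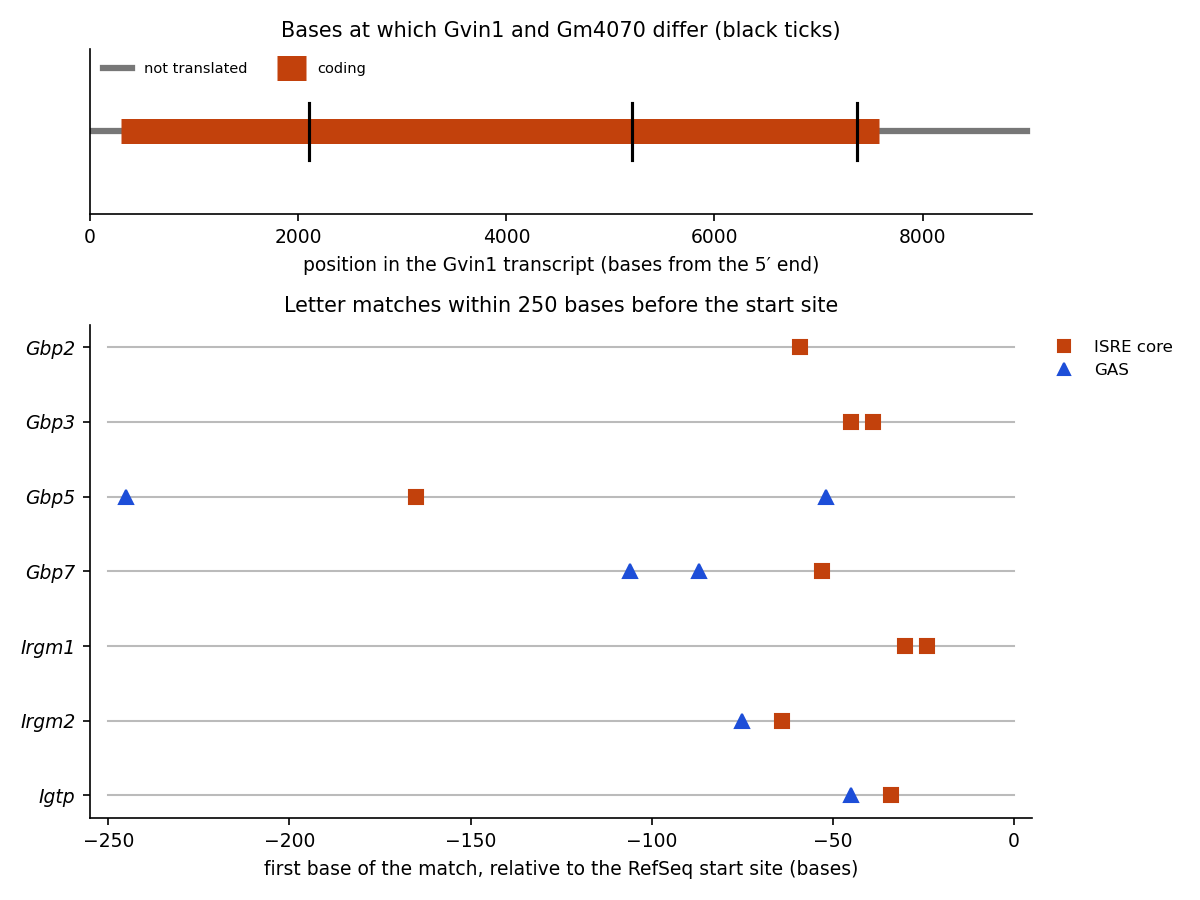
The upper map shows the Gvin1 transcript in bases from its 5′ end, with the coding part as the thick bar and black ticks at the 3 bases where Gm4070 differs. The lower map places each ISRE core (squares) and GAS (triangles) match by its first base relative to the start site for 7 members; the ISRE matches of 6 members sit within 64 bases of the start and that of Gbp5 at -165.

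The 4 GBP members lie on chromosome 3 within 0.144 Mb. Irgm2 and Igtp overlap on the plus strand of chromosome 11, and 165 bases of their transcripts were identical, so that a read from this stretch can count for either gene. Gbp7 shares 637 identical bases with the overlapping gene model Gm43802. Whether counting used strand was not given, and Gvin1 has 322 bases that are identical to the antisense model Gm20663. The counts are barcoded molecules primed at poly(A), without correction for length, so levels below are compared between libraries and not between genes.

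Depth ran from 201697 to 309617 molecules per library, so that in the library of lowest depth a count of 0 left room for 0.00149% of molecules, or 3. All 10 macrophage markers were detected, with a summed share of 1.11% ± 0.147 (SD, n = 6) in DMSO and 1.17% ± 0.0515 in picrotoxin libraries. Cd3e, Cd3g, Cd8a and Gzma were at 0 in all libraries, and the summed T and NK cell markers held 0 to 1 molecule in DMSO libraries and 0 to 23 in picrotoxin libraries, with the 23 in picrotoxin replicate 6 (exact permutation test, two-sided, p = 0.348; adjusted over 9 marker lists, 0.422). Of 5 epithelial markers of MC38, Epcam, Krt18 and Krt19 were at 0 in all libraries and the remaining pair held 8 to 14 molecules in DMSO and 8 to 21 in picrotoxin libraries, or 0.00426% ± 0.00112 (SD, n = 6) and 0.00671% ± 0.00266 of all molecules (exact permutation p = 0.0649, adjusted 0.422). The part of this list in the member values was not tested. All 12 fibroblast and matrix markers were detected, at 0.0861 to 0.471% in DMSO and 0.119 to 0.224% in picrotoxin libraries (exact permutation p = 0.413, adjusted 0.422). The highest share was in DMSO replicate 5. Among libraries numbered 3 to 6, the matrix share was lower in picrotoxin than in DMSO by 0.0984 percentage points on average (exact permutation p = 0.0286, the smallest that 4 against 4 libraries can give). That p was not adjusted, and several other sets of libraries were tried. Over all libraries except DMSO replicate 5, the difference was 0.00765 percentage points (exact permutation p = 0.829). Values of the members with a matrix score as a term in the model are given beside their results. This score was the unweighted mean of the log2 values of the same 12 markers, scaled to library depth. The summed share itself was not fitted.

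Together the 9 measurements took 0.324% ± 0.0886 (SD, n = 6) of all molecules in DMSO and 0.332% ± 0.0523 in picrotoxin libraries. Without Gvin1 the shares were 0.300% ± 0.0862 and 0.295% ± 0.0518. The group means of these shares lay closer together than the libraries within a group.

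Gvin1 had the largest fitted difference of the 9 measurements. In DMSO libraries its normalised number of molecules was 41.7 at the lowest, 57.4 at the median and 67.5 at the highest, and in picrotoxin libraries 75.0, 89.4 and 94.0. All 6 picrotoxin libraries lay above all 6 DMSO libraries, as in 0.198% of the 9580 tested genes in this direction. The means were 56.4 ± 9.43 and 87.5 ± 6.95 (SD, n = 6), and the fitted log2 fold change was 0.65 ± 0.13 (SE; 95% interval 0.40 to 0.91), or 1.57-fold. With the matrix score as a term in the fit the value was 0.52 ± 0.13, and among libraries numbered 3 to 6 it was 0.72 ± 0.15. An adjusted p under 0.05 in edgeR was reached by 0.0522% of tested genes, with Gvin1 and Gm4070 counted as separate genes. Gvin1 was the only measurement among the 9 that did so. That call was absent with the matrix score as a term, and when libraries were left out singly it was kept in 4 of 12 fits (those without DMSO replicate 1, 2 or 4 or picrotoxin replicate 6). Because Gvin1 was chosen on this comparison, nothing is read from the call. In bulk libraries, a change in the cells that express a gene cannot be told apart from a change in RNA per cell.

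**Figure D2:**
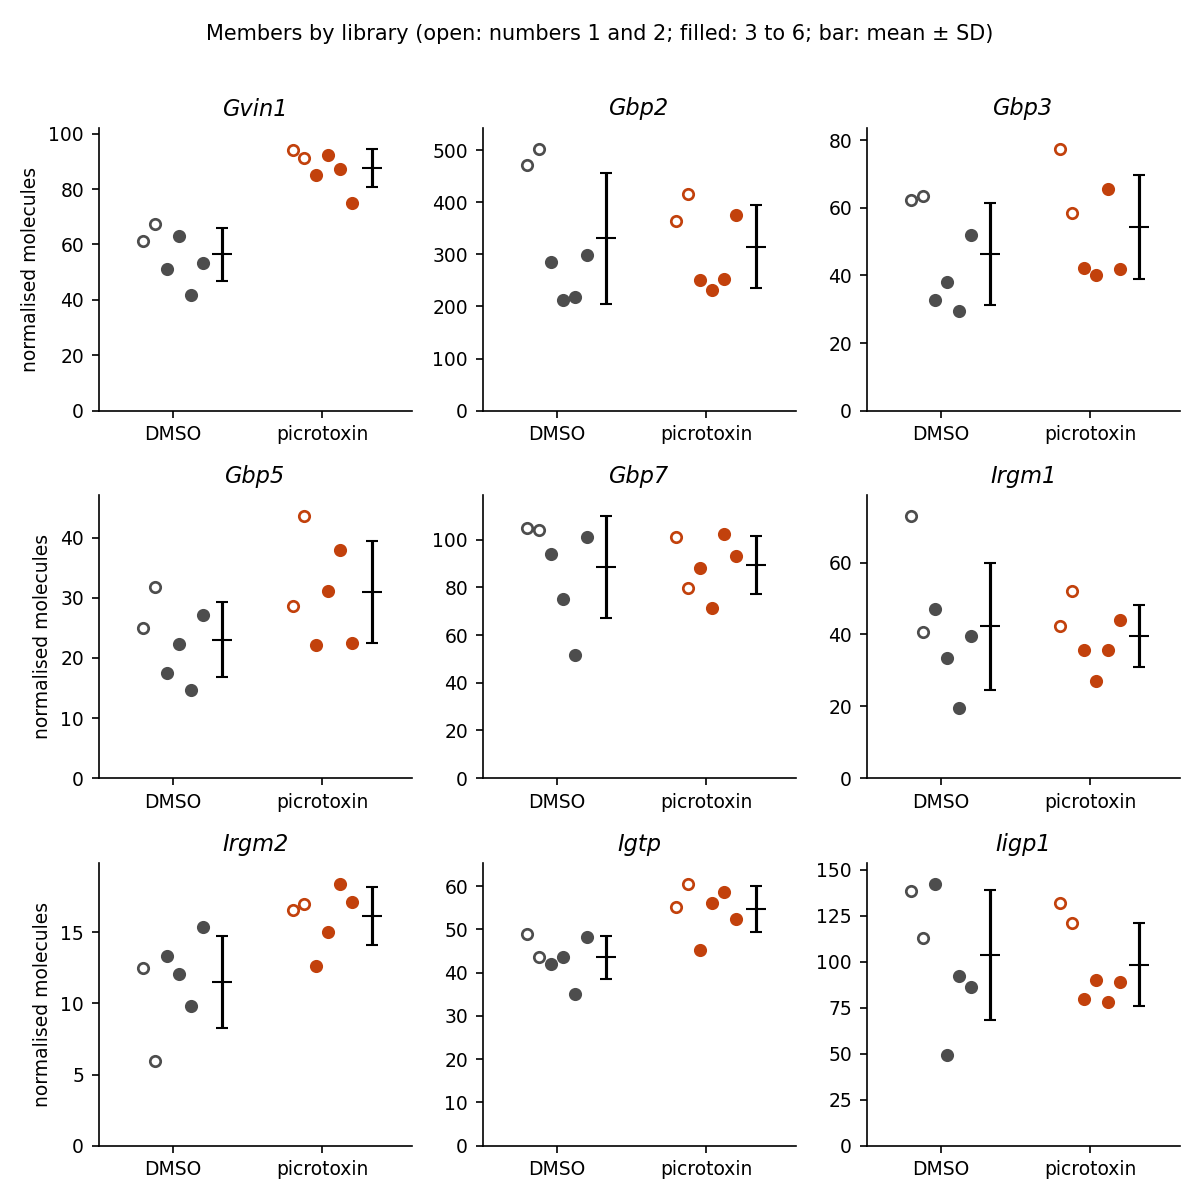
Normalised molecules per library (vertical axes, from 0) for 9 measurements in DMSO (grey) and picrotoxin (orange) libraries; open circles are libraries numbered 1 and 2, filled circles 3 to 6, and bars give mean ± SD of 6 libraries. Gvin1 is the one panel in which the groups do not overlap, from 75.0 upward in picrotoxin against 67.5 at most in DMSO.

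Igtp, a regulatory IRG also called Irgm3, had 35.2 to 48.9 normalised molecules in DMSO (median 43.6) and 45.2 to 60.5 in picrotoxin libraries (median 55.7). In 5 of 6 picrotoxin libraries it exceeded the highest DMSO library, and the groups overlapped by the remaining library. Its log2 fold change was 0.34 ± 0.13 (SE; 95% interval 0.07 to 0.61), and 0.26 ± 0.14 with the matrix score as a term.

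Irgm2, another regulatory IRG, was sparse, with 6 to 21 molecules per library before normalisation. Its normalised values were 5.96 to 15.4 in DMSO (median 12.3) and 12.6 to 18.4 in picrotoxin libraries (median 16.8), and 4 of 6 picrotoxin libraries exceeded the highest DMSO library. The log2 fold change was 0.48 ± 0.22 (SE; 95% interval 0.03 to 0.93). Among libraries numbered 3 to 6 it was 0.33 ± 0.27, and with the matrix score as a term 0.47 ± 0.25.

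Gbp5, which takes part in inflammasome assembly, had 14.7 to 31.8 normalised molecules in DMSO (median 23.6) and 22.1 to 43.5 in picrotoxin libraries (median 29.8). Only 2 picrotoxin libraries exceeded the highest DMSO library. The log2 fold change was 0.43 ± 0.20 (SE; 95% interval 0.03 to 0.83), and with the matrix score as a term 0.25 ± 0.20. Gbp3 overlapped more widely, at 29.4 to 63.5 in DMSO and 40.1 to 77.4 in picrotoxin libraries. Its log2 fold change of 0.25 ± 0.18 (SE; 95% interval -0.13 to 0.62) fell to 0.04 ± 0.17 with the matrix score as a term.

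Gbp2, Gbp7, Irgm1 and Iigp1 had fitted differences near 0, which were lower with the matrix score as a term. Of these, only Gbp7 moved from above to below 0 with that term. Gbp2, a GBP of the vacuole coat, had 211 to 502 normalised molecules in DMSO (median 291) and 232 to 415 in picrotoxin libraries (median 309), with a log2 fold change of -0.06 ± 0.17 (SE; 95% interval -0.40 to 0.29). Gbp7 ran from 51.5 to 105 in DMSO and from 71.2 to 102 in picrotoxin libraries, with a log2 fold change of 0.03 ± 0.14 (SE; 95% interval -0.26 to 0.32). Irgm1 was between 19.6 and 72.8 in DMSO and between 27.1 and 52.0 in picrotoxin libraries, at -0.06 ± 0.20 (SE; 95% interval -0.47 to 0.35). With the matrix score as a term the values were -0.27 ± 0.14 for Gbp2, -0.15 ± 0.13 for Gbp7 and -0.34 ± 0.17 for Irgm1. In each of these genes the groups overlapped.

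Iigp1, the effector IRG, lies at chr18:60376027-60392634. Its values ran from 49.2 to 142 in DMSO (median 103) and from 78.2 to 132 in picrotoxin libraries (median 89.6), and 4 of 6 picrotoxin libraries were below the DMSO mean. The log2 fold change was -0.05 ± 0.17 (SE; 95% interval -0.39 to 0.30), and -0.10 ± 0.18 with the matrix score as a term. The signs of Gbp2, Gbp7, Irgm1 and Iigp1 changed with the way of processing.

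Over the 9 measurements the median log2 fold change was 0.25, beside -0.01 over all 9580 tested genes, and 6 of 9 were above 0, as were 49.3% of all tested genes. The median fell to 0.04 with the matrix score as a term and to 0.04 without DMSO replicates 3 and 5. Without DMSO replicates 5 and 6, the pair of highest matrix share and a choice made after seeing the data, it was 0.15.

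**Figure D3:**
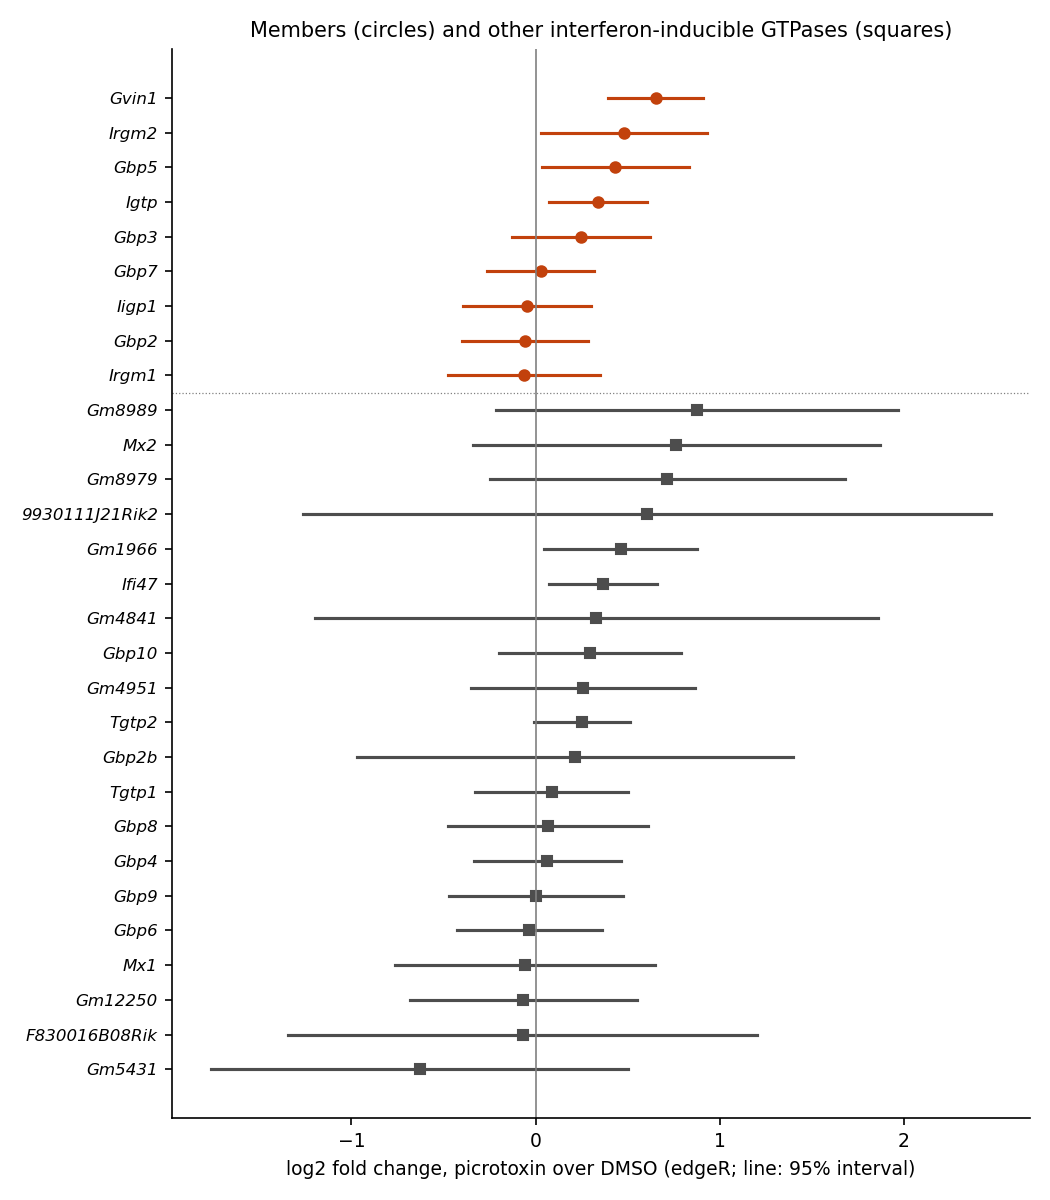
Log2 fold change of picrotoxin over DMSO (horizontal axis) with its 95% interval for 9 measurements (circles) and 20 other interferon-inducible GTPases (squares), each gene on its own line. The members run from -0.06 (Irgm1) to 0.65 (Gvin1), and the wide intervals at the top of the lower block belong to genes with few molecules.

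Relative to its mean, the spread between DMSO libraries (SD as a percentage of the mean) was 41.8% for Irgm1, 38.0% for Gbp2, 33.9% for Iigp1, 32.4% for Gbp3 and 24.0% for Gbp7. Counting noise at their numbers of molecules would give 14.8%, 5.28%, 9.43%, 14.1% and 10.2%, so these members varied between libraries by more than counting. The spread was 16.7% for Gvin1, 27.3% for Gbp5, 28.4% for Irgm2 and 11.4% for Igtp, where counting noise would give 12.8%, 20.0%, 28.3% and 14.5%. Among picrotoxin libraries the spread was 25.0% for Gbp2, 22.9% for Iigp1 and 7.94% for Gvin1, beside 5.75%, 10.3% and 10.9% from counting.

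Much of the spread of Gbp2 followed the library number. DMSO libraries numbered 1 and 2 held 471 and 502 normalised molecules, and those numbered 3 to 6 held 211 to 298, without overlap. In picrotoxin, numbers 1 and 2 held 365 and 415, and numbers 3 to 6 held 232 to 375, which overlapped. As means, numbers 1 and 2 exceeded numbers 3 to 6 by 1.92-fold in DMSO and 1.41-fold in picrotoxin libraries. The corresponding ratios of Gbp3 were 1.65 and 1.43, and those of Irgm1 1.63 and 1.33. For Iigp1 the means were 126 and 92.6 in DMSO and 126 and 84.3 in picrotoxin libraries. Gvin1 gave 1.23 and 1.09, and Igtp 1.10 and 1.09. Irgm2 was the member with a lower mean in DMSO numbers 1 and 2 (ratio 0.729). The labels do not say what the numbers stand for. The matrix share was at 0.0861 and 0.0983% in DMSO numbers 2 and 1 and at 0.230 to 0.471% in DMSO numbers 3 to 6, so this share moved with the number as well, and its part in the member values was not tested.

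Within the groups, members rose and fell together across libraries to different degrees. After group means were subtracted, Pearson's r over the 12 libraries was above 0 for 31 of 36 pairs of measurements, with a median of 0.48 and a range of -0.24 to 0.83. The points share libraries, depth and the gradient between library numbers, and no p is given. Gbp5 and Igtp had the highest value (0.83), followed by Gbp2 and Irgm1 (0.76), Gbp7 and Irgm1 (0.75) and Gbp3 and Gbp5 (0.75). Gvin1 followed Gbp5 (0.74), Gbp3 (0.68) and Igtp (0.60) but not Iigp1 (0.02) or Irgm2 (-0.24). Iigp1 was nearest to Gbp2 (0.67). Irgm2, with its few molecules, reached 0.46 at most, with Igtp, the gene it overlaps.

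**Figure D4:**
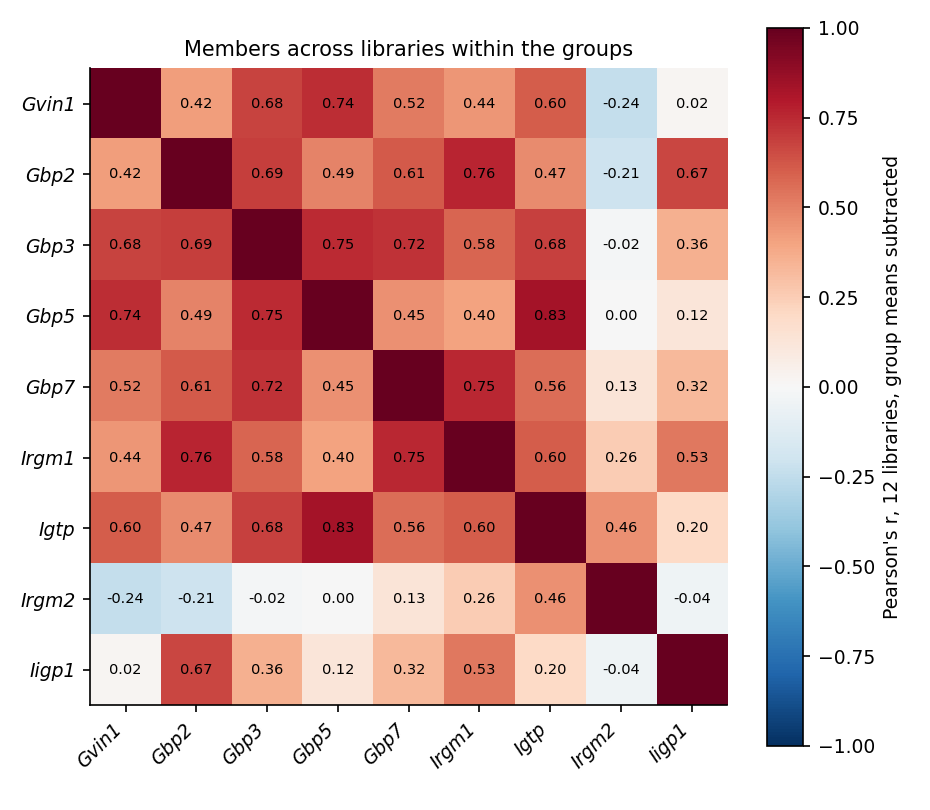
Pearson's r between members (rows and columns) over 12 libraries with group means subtracted, from -1 (blue) to 1 (red). The block of Gbp2, Gbp3, Gbp5, Gbp7, Irgm1 and Igtp is red throughout, from 0.40 to 0.83, whereas Irgm2 runs from -0.24 (with Gvin1) to 0.46 (with Igtp) and the Gvin1–Iigp1 pair stands at 0.02.

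Genes outside the list were ranked by the same measure among 3731 genes with a mean of at least 10. The pattern most like that of Gvin1 belonged to Ndufv2, a subunit of respiratory complex I (r = 0.91). Cd274, which encodes PD-L1 (0.88), Ptprc, which encodes CD45 (0.88), Sema4d (0.87), Pbxip1 (0.86) and Slirp (0.85) came next, and the median gene stood at 0.04. Against the mean of the 8 other measurements, the highest values were those of the cytochrome c gene Cycs (0.91), the interferon-induced genes Oasl1 (0.89) and Ifi205 (0.88), Gbp4 (0.88), Dtx3l (0.88) and Fgl2 (0.87). Of these 12 genes none had an adjusted p under 0.05 between the groups in edgeR, and 1 of them, Dtx3l, had an unadjusted p under 0.05 (0.0459, adjusted 0.636). The r between Gvin1 and the mean of the 8 others was 0.55, and 0.26 in libraries numbered 3 to 6.

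Other interferon-inducible GTPases numbered 24, of which 20 were tested. None had an adjusted p under 0.05 in edgeR, DESeq2 or limma-voom, beside 0.0522% of all tested genes in edgeR. An unadjusted p under 0.05 in edgeR was reached by Ifi47 and Gm1966, both with higher values in picrotoxin, against 3.67% of all tested genes in this direction and 7.72% in either. The median log2 fold change of the list was 0.23. By family it was 0.07 for 6 other GBPs, 0.25 for 9 other IRGs and 0.35 for 2 genes of the MX family. It was 0.72 for 3 relatives of Gvin1, which may share its reads. Ifi47, an IRG, had 36.2 to 70.8 normalised molecules in DMSO and 59.8 to 70.0 in picrotoxin libraries, with a log2 fold change of 0.37 ± 0.14 (SE; edgeR adjusted p = 0.493). Tgtp2, an effector IRG that is near-identical to Tgtp1 and may share reads with it, had 0.25 ± 0.13 (SE; edgeR adjusted p = 0.674). Tgtp1 had 0.09 ± 0.20 (SE; edgeR adjusted p = 0.958).

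Among annotated relatives of Gvin1, Gm1966, Gm8979 and Gm8989 were measured beside it. Gm1966 aligned to the Gvin1 transcript over 7294 bases at 92.9% identity, Gm8979 over 7299 at 96.2% and Gm8989 over 7293 at 96.0%, so reads of Gvin1 could be split with them to an unknown extent. Gm1966 had 9.82 to 41.0 normalised molecules in DMSO and 27.6 to 56.2 in picrotoxin libraries, and its log2 fold change was 0.46 ± 0.20 (SE; edgeR adjusted p = 0.595). Gm8979 and Gm8989 held 18 and 11 molecules in all DMSO libraries and 26 and 18 in all picrotoxin libraries. Their log2 fold changes of 0.72 ± 0.47 and 0.88 ± 0.54 (SE) had edgeR adjusted p-values of 0.767 and 0.755.

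Upstream of these genes, the interferon ligands examined, Ifng and Ifnb1, were near the limit of detection in these sorted macrophages. Ligand made by other cells of the tumour was not measured. Ifng, the interferon-γ gene, had 0 molecules in DMSO and 2 in picrotoxin libraries, and Ifnb1 had 0 in both, so no difference was detectable at this depth. Of 27 interferon signalling genes 25 were tested. None had an adjusted p under 0.05 in edgeR, DESeq2 or limma-voom, beside 0.0522% of all tested genes in edgeR. Irf8 is a transcription factor of macrophages that acts with PU.1. Jak2 is a kinase of the interferon-γ receptor, and Ifnar2 is a chain of the type I interferon receptor. Irf8, Jak2 and Ifnar2 had an unadjusted p under 0.05 in edgeR with higher values in picrotoxin, against 3.67% of all tested genes. Their log2 fold changes were 0.39 ± 0.13, 0.45 ± 0.19 and 0.30 ± 0.13 (SE; edgeR adjusted p = 0.340, 0.561 and 0.590). Ifnar2 was the one signalling gene whose groups did not overlap, at 32.3 to 39.3 in DMSO and 40.3 to 49.3 in picrotoxin libraries, against 0.198% of all tested genes. Fitted values were above 0 for 20 of the 25 genes, against 49.3% of all tested genes, and the median over the list was 0.16.

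Among 33 other interferon-induced genes, 32 were tested. None had an adjusted p under 0.05 in edgeR, DESeq2 or limma-voom, beside 0.0522% of all tested genes in edgeR. An unadjusted p under 0.05 was reached by 4 with higher and 2 with lower values in picrotoxin, against 3.67% and 4.05% of all tested genes. The median log2 fold change was -0.03, beside -0.01 for all tested genes. It was 0.23 for the other GTPases, a list that includes the relatives of Gvin1 and differed by family as given above. The smallest p-values belonged to Nos2, inducible nitric oxide synthase, at 0.65 ± 0.25 (SE; edgeR adjusted p = 0.481), Ifi44 at 0.96 ± 0.41 (adjusted p = 0.557) and the antiviral gene Ifit1 (adjusted p = 0.507). Ifit1 averaged 9.67 ± 5.15 (SD, n = 6) normalised molecules under DMSO and 4.69 ± 3.92 under picrotoxin. Ifit1 and Ifi44 rested on few molecules, 63 and 25 in all DMSO libraries and 27 and 43 in all picrotoxin libraries.

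Transcripts of the proteins that load GTPases onto vacuoles or act after them gave no called difference either. The 25 partner genes tested encode enzymes that attach lipid anchors to GBPs or process such proteins afterwards, autophagy conjugation proteins, ubiquitin and galectin adaptors and inflammasome proteins. None had an adjusted p under 0.05 in edgeR, DESeq2 or limma-voom, beside 0.0522% of all tested genes in edgeR. None had an unadjusted p under 0.05 in edgeR, beside 7.72% of all tested genes. With 25 genes, these counts of 0 are not read as a result. The median was 0.02. Fntb, a farnesyltransferase subunit, had the smallest p at 1.22 ± 0.61 (SE; edgeR adjusted p = 0.653), with 8 molecules in all DMSO and 17 in all picrotoxin libraries. Nlrp3, an inflammasome sensor, had 0.32 ± 0.18 (adjusted p = 0.735) and Map1lc3b, an LC3 gene of autophagy, had 0.36 ± 0.21 (adjusted p = 0.741).

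**Figure D5:**
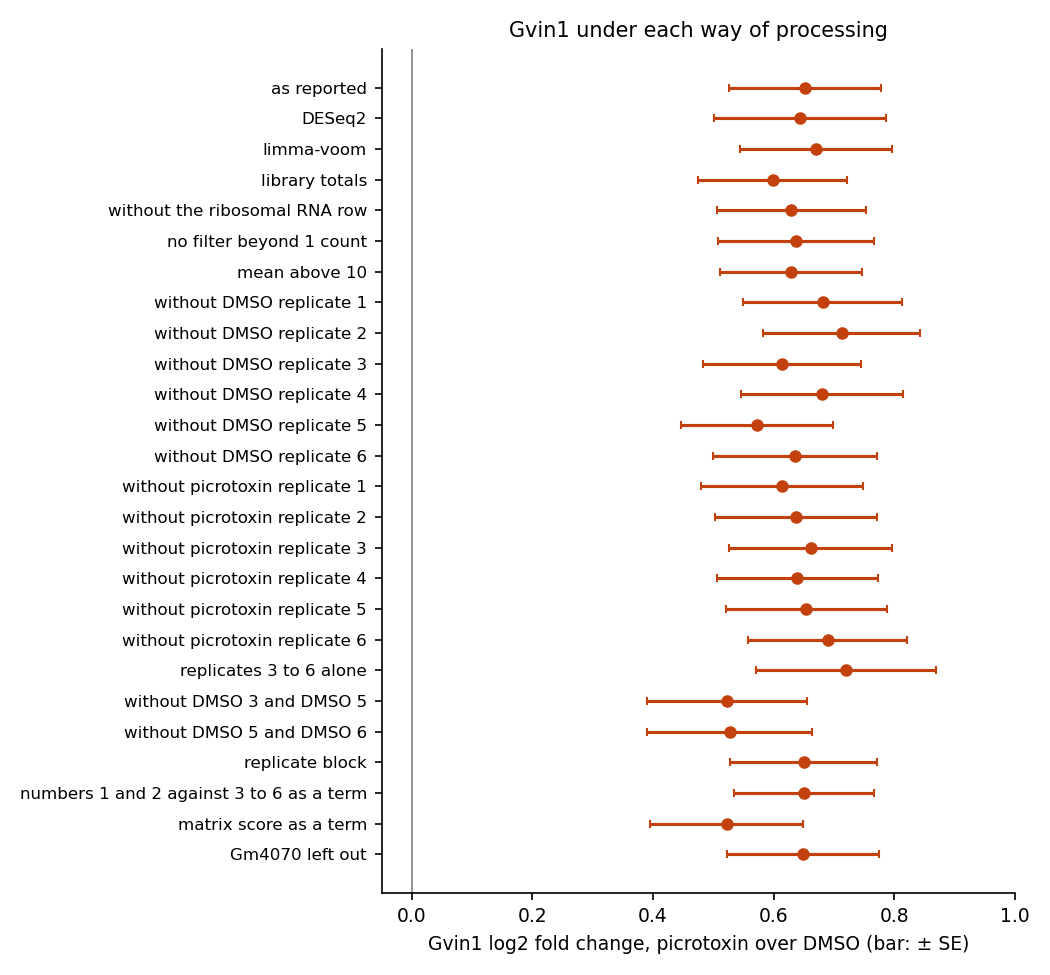
Fitted log2 fold change of Gvin1 (horizontal axis, with ± SE) as reported and under 25 other ways of processing, one per line. Each value lies between 0.52 and 0.72.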

How the data were processed

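Libraries of sorted TAMs were counted by the authors as molecules: per the labels, heat-fragmented RNA was primed with oligo-dT that carried a molecular barcode. Reads were mapped with STAR to mm10. The authors deposited raw counts of molecules per gene symbol, without normalisation. Strand use, barcode correction and multimapper handling were not given in the sources used here. Oligo-dT priming favours 3′ ends.

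From these counts, edgeR 4.0.16 (TMM, quasi-likelihood, Benjamini-Hochberg over all tested genes) compared picrotoxin with DMSO among genes with a mean above 1; DESeq2 1.42.0, limma-voom (limma 3.58.1), other filters and other designs were alternatives. Values per library are counts divided by DESeq2 size factors. Pairs of libraries of a group differed by more than sampling noise (chi-square per degree of freedom 1.23 to 3.15). The script was tested on simulated data. The limits given for counts of 0 cover counting error only, and the intervals of fold changes rest on the spread between libraries.

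Members and gene lists were chosen with earlier results of these data known. Named genes were the members, in each gene list any gene with an adjusted p under 0.05 and the 3 of smallest p, the 6 genes most like Gvin1 and the 6 most like the other members, and Ifng; 1 further gene of the rule is not reported here. Gm8979, Gm8989, Tgtp1, Ifnb1 and Cd74 were named after their values were seen. Gm8995 and Trac were not analysed here. 0 columns were left unmapped. Sequences are from RefSeq (GRCm38.p6) and GENCODE release 21.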

Additional observations from a re-analysis of the deposited data

Results flagged for a closer look

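In groups of 6 libraries, 50 sets of values were examined for a single library far from the others, and 2 were found, where chance would give about 1 in 20. Gm1966, the pseudogene relative of Gvin1, stood at 9.82 normalised molecules in DMSO replicate 5, and the other DMSO libraries were at 30.8 to 41.0. The summed T and NK cell markers took 0.0105% of molecules in picrotoxin replicate 6, and at most 0.000880% in the other picrotoxin libraries. No member was among them.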

How the results depend on the processing

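The count of genes with an adjusted p under 0.05, 5 as reported, was 2 with DESeq2, 3 with limma-voom, 14 with library totals in place of TMM, 12 without the ribosomal RNA row, 81 with no filter beyond 1 count, 48 with libraries 3 to 6 alone, 27 with numbers 1 and 2 against 3 to 6 as a term, 1 without DMSO replicates 3 and 5, 0 without DMSO replicates 5 and 6 (added after seeing the data, since replicate 6 had a matrix share of 0.235% and replicate 3 of 0.234%), 0 with the matrix score as a term and 0 to 25 when single libraries were left out. Gvin1 and Gm4070, although 1 measurement, were both among the genes called as reported, with DESeq2 and with limma-voom. With Gm4070 left out of the reported fit, the count was 4. Over all tested genes, deviations of same-numbered samples were hardly correlated (correlations -0.0156 to 0.0462, none above 0.1, and none best with its own number). Many of these genes have few molecules, and counting noise lowers such correlations, so pairing by number cannot be judged from this check. Some members had higher means in numbers 1 and 2 in both groups, as given above for Gbp2. The replicate block gave 43 genes, with 0.65 for Gvin1. Gvin1, Igtp, Gbp5, Irgm2 and Gbp3 were above 0 in 25 of 25 alternatives, whereas Gbp2 was below 0 in 19, Irgm1 in 21, Iigp1 in 19 and Gbp7 in 8. Leaving out single libraries moved Gvin1 between 0.57 and 0.71, and the median of the members between 0.09 (without picrotoxin replicate 1) and 0.35. With libraries 3 to 6 alone, 1 interferon signalling gene (Irf8, 0.56, edgeR adjusted p = 0.0411) and 1 other interferon-induced gene (Cd74, 0.51, adjusted p = 0.0413) passed, the matrix share difference was -0.0984 percentage points, and the likeness of Gvin1 to the other members was 0.26. The cause of these shifts was not tested. About 6 to 21 molecules per library limited Irgm2.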
